A study of Homo sapiens with 20 samples.

Results

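Genes for proteins that breast and other glandular epithelia secrete, many of them antimicrobial, were followed in MDA-MB-468 cells during treatment with epidermal growth factor (EGF). They are LCN2, LTF, CRISP3, PI3, SLPI, WFDC2, PIP, MUCL1 and SCGB2A1, which makes 9 of the 60271 genes in the count table. They were selected on their measured levels in these same libraries, across the untreated cells and all EGF times. Their levels and fold changes are therefore given as a description, without p-values. MDA-MB-468 is an established line of triple negative breast cancer cells that carries many EGF receptors. By the general protocol of the study, cells spent 24 h without serum before EGF. They received EGF at 50 ng/mL or were left untreated as control. The EGF groups differ by time, which was 12, 24, 48 or 72 h, and each group has 4 biological replicates. All groups were seeded and harvested together, and all 4 times are compared with the same 4 control libraries. With a common seeding and harvest, 24 h without serum before EGF cannot hold for every EGF time. Effects of the culture time before EGF can therefore not be told apart from those of EGF time. Libraries held 15611961 to 25856953 estimated counts, and levels are given as CPM, which are counts scaled to a common library size by TMM. The low-count filter of edgeR kept 7 of the 9 genes, and the other 2, LTF and SCGB2A1, were too low to measure.

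The proteins of this group act outside the cell, in milk, saliva, mucus and tears. Some starve microbes of iron, some block the proteases that neutrophils and shed cells release, and others are mucins or carrier proteins of the mammary gland and of apocrine tissue. In breast pathology several of them serve as markers of glandular differentiation, and lipocalin 2 is also known as an iron carrier of aggressive tumors. As RNA was taken from whole cultures, less RNA per cell cannot be told apart from fewer cells that make it.

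Promoters are shown for LCN2, whose level was higher at every EGF time, and for 3 genes whose levels were lower at every EGF time, CRISP3, MUCL1 and PIP. RefSeq (GRCh38.p14) gave a promoter for 7 of the 9 genes. The stretches below lie in the 250 bases before the RefSeq start and leave out bases under an exon of the gene in GENCODE 29. They are written 5′ to 3′ on the strand of the gene, and capitals mark matches, on either strand, to a motif of AP-1 (TGANTCA), NF-kB (GGGA and TCC with any 3 bases between them) or C/EBP (TTGCNNAA).
LCN2, chr9:128149265-128149440, plus strand: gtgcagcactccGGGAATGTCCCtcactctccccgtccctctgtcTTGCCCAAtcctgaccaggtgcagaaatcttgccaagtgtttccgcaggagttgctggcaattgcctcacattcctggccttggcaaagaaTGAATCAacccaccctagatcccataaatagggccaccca
CRISP3, chr6:49744438-49744638, minus strand: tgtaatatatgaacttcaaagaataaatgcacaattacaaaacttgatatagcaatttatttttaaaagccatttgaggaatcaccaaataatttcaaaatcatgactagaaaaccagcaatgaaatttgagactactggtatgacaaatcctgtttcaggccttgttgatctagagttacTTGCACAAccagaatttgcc
MUCL1, chr12:54854266-54854515, plus strand: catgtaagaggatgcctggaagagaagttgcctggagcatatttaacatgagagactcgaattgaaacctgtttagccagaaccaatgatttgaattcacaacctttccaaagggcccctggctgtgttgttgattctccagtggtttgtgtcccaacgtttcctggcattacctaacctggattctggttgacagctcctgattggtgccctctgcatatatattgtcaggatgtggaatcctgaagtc
PIP, chr7:143131827-143132076, plus strand: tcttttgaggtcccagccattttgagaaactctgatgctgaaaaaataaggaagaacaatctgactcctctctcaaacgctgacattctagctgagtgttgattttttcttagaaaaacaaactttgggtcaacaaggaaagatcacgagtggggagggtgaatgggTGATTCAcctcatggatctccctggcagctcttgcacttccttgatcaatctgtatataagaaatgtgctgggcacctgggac

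The LCN2 stretch held all 3 motifs. Its NF-kB match lay 176 to 167 bases before the start and overlapped a match on the other strand at 175 to 166 bases. Its C/EBP match lay 143 to 136 bases and its AP-1 match 52 to 46 bases before the start. CRISP3 had a C/EBP match 69 to 62 bases before the start, and a further one at 54 to 47 bases that runs past the end of the stretch shown. PIP had a single AP-1 match, 83 to 77 bases before the start, and MUCL1 had none of the 3. Of all 35116 promoter windows of 250 bases, 6.57% held the AP-1 letters, 4.31% those of NF-kB and 9.05% those of C/EBP. A match describes letters only and is not a measured binding site.

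LCN2 encodes lipocalin 2, which binds the siderophores that bacteria use to take up iron. The gene (ENSG00000148346) lies at chr9:128149071-128153455 on the plus strand of hg38 and has 8 exons after transcripts are merged. In the 4 control libraries its level was 139, 179.5, 116 and 129 CPM. At 12 h of EGF it was 246, 237, 234 and 249 CPM, so that all 4 libraries lay above every control. At 24 h the level was 351, 365, 358 and 376 CPM, and at 48 h it was 747.5, 673, 659 and 652 CPM. By 72 h it had reached 2061, 1906, 2010 and 2054 CPM. The 5 groups did not overlap at any point, and each EGF group stood above the one before. The log2 fold change against control was 0.78 ± 0.09 (SE) at 12 h and 1.36 ± 0.09 at 24 h. It was 2.28 ± 0.09 by 48 h and 3.83 ± 0.09 by 72 h. The last corresponds to a 14.2-fold higher level. The step from 48 to 72 h, 1.56 ± 0.09 on the log2 scale, was the largest of the 3 steps between EGF times. Spread between replicates was widest in untreated cells, where the SD was 19.4% of the mean, against 2.96% at 24 h and 3.58% at 72 h. Control replicate 2 was the highest of the controls, and without it the log2 fold change at 72 h was 3.97.

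LTF, the gene for lactotransferrin, encodes the iron-binding protein of milk and of neutrophil granules. It lies at chr3:46435645-46485234 on the minus strand. The gene could not be measured here: its counts were 0 to 3 in every library and summed to 9 over all 20. All 8 libraries of 12 and 24 h had 0 counts, which allows up to 3 counts per library, or 0.128 to 0.186 CPM depending on depth. No fold change is given for it.

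CRISP3 encodes cysteine-rich secretory protein 3, a protein of saliva, seminal fluid and neutrophil granules. The gene (ENSG00000096006) lies at chr6:49727384-49744437 on the minus strand and has 8 merged exons. Control libraries held 322.5, 295, 381 and 324 CPM. The level was 119.9, 105, 127 and 114 CPM at 12 h and 24.0, 22.5, 23.9 and 23.5 CPM at 24 h. It then changed less, with 16.0, 16.1, 17.1 and 15.7 CPM at 48 h, and was 4.66, 6.83, 6.53 and 5.68 CPM at 72 h. No library of any group overlapped with the group before it. Against control, log2 fold changes were -1.51 ± 0.08 at 12 h and -3.82 ± 0.09 at 24 h. They were -4.35 ± 0.09 by 48 h and -5.82 ± 0.10 by 72 h, where the level was 56.3-fold lower. Only 8 of the 16522 genes tested had a more negative log2 fold change at 72 h. The largest single step was from 12 to 24 h, -2.31 ± 0.09, while that from 24 to 48 h was -0.53 ± 0.09.

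PI3 encodes elafin, an inhibitor of neutrophil elastase with a WAP domain, the fold named after whey acidic protein. The gene (ENSG00000124102) lies at chr20:45174876-45176544 on the plus strand and has 3 merged exons. Its levels were 92.8, 96.3, 81.3 and 90.35 CPM in control and 258, 249, 238 and 246 CPM at 12 h. They were 239, 294, 279.5 and 291 CPM at 24 h, then 100.4, 91.65, 90.1 and 93.45 CPM at 48 h. At 72 h they were 109.8, 88.6, 93.9 and 99.6 CPM. The 12 and 24 h libraries lay above all others, and the 48 and 72 h libraries overlapped with the control. Against control the log2 fold change was 1.46 ± 0.07 at 12 h and 1.61 ± 0.07 at 24 h. It was 0.06 ± 0.08 at 48 h and 0.12 ± 0.08 at 72 h. Between 24 and 48 h the level was lower by -1.56 ± 0.07 on the log2 scale, or 2.94-fold.

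SLPI encodes secretory leukocyte peptidase inhibitor, a further elastase inhibitor of the WAP family, which also acts on bacteria. The gene (ENSG00000124107) lies at chr20:45252239-45254564 on the minus strand and has 4 merged exons. Control libraries varied most, with 258, 303, 194 and 230.4 CPM. The 12 h libraries held 191, 179.8, 185 and 180.5 CPM, all just below the lowest control. At 24 h they held 119 to 131 CPM, at 48 h 146, 137, 107 and 119 CPM, and at 72 h 134, 113, 129 and 132.5 CPM. From 24 h on the 3 groups overlapped with each other and lay below all control and 12 h libraries. The log2 fold change was -0.42 ± 0.10 at 12 h and then stayed between -0.95 ± 0.10 and -0.97 ± 0.10. Scaling by library size alone moved it to -0.71 at 12 h, in the same direction.

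WFDC2 encodes HE4, a WAP protein of glandular epithelia that is used as a serum marker of ovarian cancer. The gene (ENSG00000101443) lies at chr20:45469706-45481532 on the plus strand and has 5 merged exons. It was near the limit of what these libraries could measure. The 4 control libraries had 51, 53, 21 and 23 counts, or 0.896 to 2.56 CPM. Counts were 36, 33, 39 and 30 at 12 h, 24, 23, 7 and 28 at 24 h, and 32, 30, 18 and 27 at 48 h. The highest counts came at 72 h, with 106, 56, 44 and 58, or 2.46 to 4.09 CPM. The 72 h libraries lay above all libraries of 12, 24 and 48 h, but 1 of the 4 lay within the range of the controls. The log2 fold change against control was 0.99 ± 0.30 at 72 h and 1.41 ± 0.31 against 48 h. At 12, 24 and 48 h it was 0.09 ± 0.32, -0.63 ± 0.34 and -0.42 ± 0.33.

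PIP encodes prolactin-induced protein, known in pathology as GCDFP-15, a marker of apocrine breast differentiation. The gene (ENSG00000159763) lies at chr7:143132077-143139746 on the plus strand and has 4 merged exons. Control libraries held 106, 115, 141 and 82 counts, or 3.94 to 6.02 CPM. Counts were 50, 55, 39 and 36 at 12 h and 17, 19, 19 and 28 at 24 h. They were 18, 16, 21 and 30 at 48 h and 58, 30, 17 and 31 at 72 h. All EGF libraries lay below all controls, and the 72 h libraries overlapped with those of 12, 24 and 48 h. On the log2 scale the difference from control was -1.10 ± 0.22 at 12 h and -2.16 ± 0.24 at 24 h. It was -2.35 ± 0.24 after 48 h and -1.53 ± 0.23 after 72 h. From 48 to 72 h it was 0.82 ± 0.26, with 3 of 4 libraries above all of 48 h.

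MUCL1 encodes small breast epithelial mucin, a mucin-like protein found mainly in breast and sweat gland. The gene (ENSG00000172551) lies at chr12:54830519-54858393 on the plus strand and has 6 merged exons. Its level was 79.9, 74.2, 75.1 and 79.0 CPM in control and 51.1, 45.05, 53.2 and 41.9 CPM at 12 h. It was 21.65, 24.1, 19.9 and 22.6 CPM at 24 h and 9.75, 12.1, 9.12 and 10.1 CPM at 48 h. At 72 h it was 3.97, 4.78, 4.24 and 3.26 CPM. Each group lay below the one before it with no overlap. The steps between EGF times were alike in size, at -1.11 ± 0.09, -1.11 ± 0.10 and -1.33 ± 0.12 on the log2 scale for 12 to 24, 24 to 48 and 48 to 72 h. The first of these intervals is shorter than the later ones, so the decline per hour was not even. Against control the log2 fold change was -0.69 ± 0.09 at 12 h and -4.24 ± 0.11 at 72 h, an 18.9-fold lower level.

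SCGB2A1 encodes mammaglobin B, a secretoglobin, that is a small secreted protein of glands. It lies at chr11:62208668-62213939 on the plus strand. Its counts were 0 to 3 in every library, so it was too low to measure. It had 1 to 3 counts in each control library, 7 in all. All 8 libraries of 12 and 24 h were at 0, and the sum was 2 at 48 h and 6 at 72 h. No exon of any of the 9 genes overlapped with an exon of another gene on either strand.

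**Figure D1:**
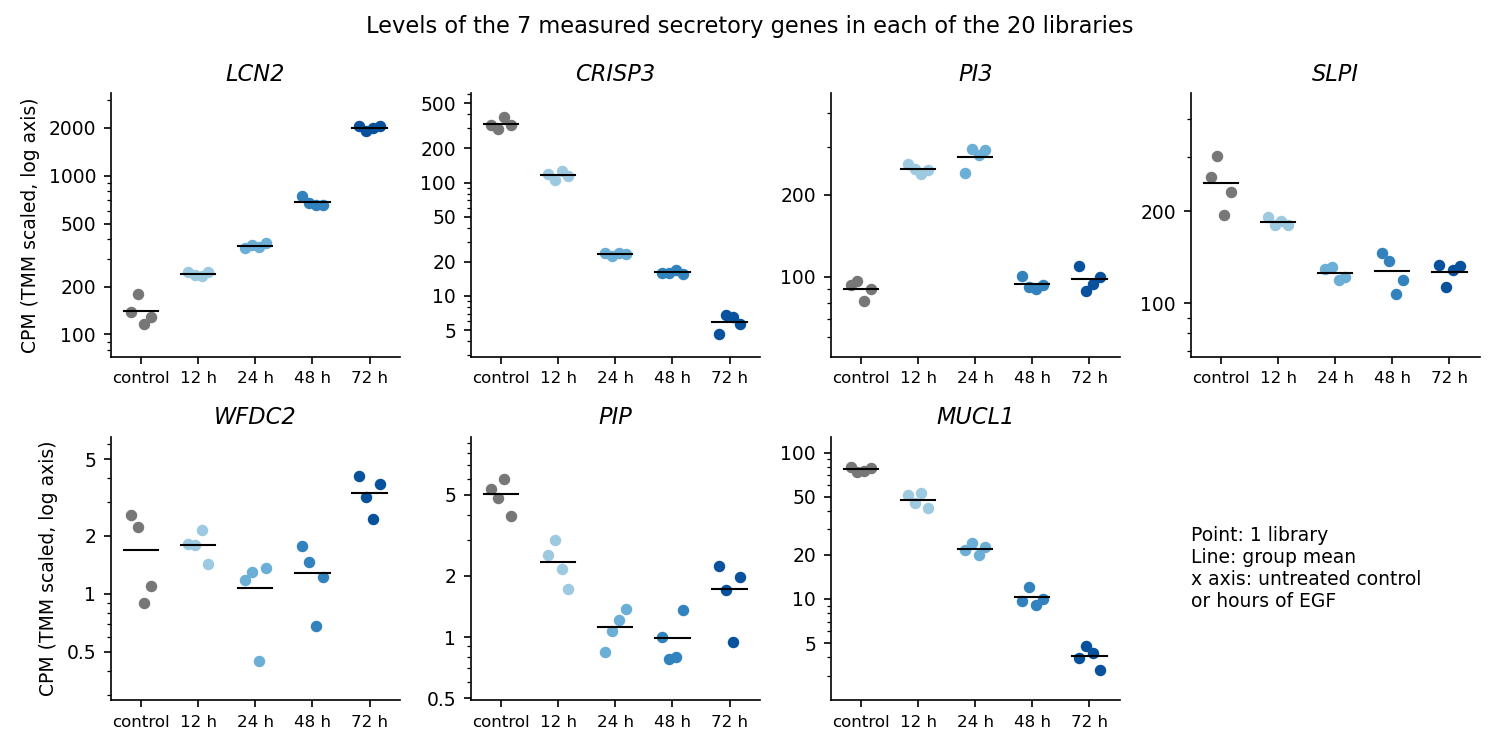
CPM after TMM scaling (log axis, a different range in each panel) of the 7 measured secretory genes in the 4 control libraries and in the 4 libraries of each EGF time. Each point is a library and the line is the group mean: LCN2 climbs from a mean of 141 to 2008 CPM, CRISP3 goes from 331 to 5.93 CPM and MUCL1 from 77.1 to 4.06 CPM, while PI3 is high only at 12 and 24 h.

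The control libraries differed among themselves in a way that several of these genes shared. Control replicate 2 was the highest of the 4 for LCN2, PI3 and SLPI and the lowest for CRISP3 and MUCL1. Control replicate 3 was the lowest for LCN2, PI3, SLPI and WFDC2 and the highest for CRISP3 and PIP. Leaving out control replicate 2 or 3 moved LCN2 at 12 h to 0.92 or 0.70 on the log2 scale and SLPI at 12 h to -0.30 or -0.52. LCN2, CRISP3, PIP, MUCL1 and SLPI had no EGF library within the control range at any time.

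Most of the measured genes had an adjusted p under 0.05 in the quasi-likelihood test of edgeR (Benjamini-Hochberg), as did much of the transcriptome. At 12 h against control 6 of the 7 passed, 2 higher and 4 lower, beside 69.4% of all genes tested. At 24 h 6 passed, beside 58.8% of all genes. At 48 h 5 passed, without PI3 and WFDC2, beside 45.8%. At 72 h 6 passed, 2 higher and 4 lower, beside 61.6%. Since the genes were chosen on these levels, nothing is read from these counts. Groups did not overlap for 6, 6, 5 and 5 of the 7 genes at the 4 times, where the shares over all genes were 60.8%, 48.2%, 34.9% and 52.0%.

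Between successive times, 5 of the 7 genes passed from 12 to 24 h, where 53.7% of all genes did, 4 from 24 to 48 h, where 50.2% did, and 5 from 48 to 72 h, where 35.7% did. PIP was among the last 5, and left that count when 72 h replicate 1 or 48 h replicate 3 was left out. PI3 passed from 12 to 24 h when 24 h replicate 1 was left out, and WFDC2 passed at 24 h against control when control replicate 3 was left out. Groups did not overlap for 6, 4 and 4 of the 7 genes in these steps, and for 53.5%, 44.6% and 35.1% of all genes. TMM scaling mattered most at 12 h: with library size alone, the median log2 fold change of all genes moved by -0.28 at 12 h and -0.14 at 24 h. Relative to that shift no called log2 fold change of the 7 genes changed its sign.

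**Figure D2:**
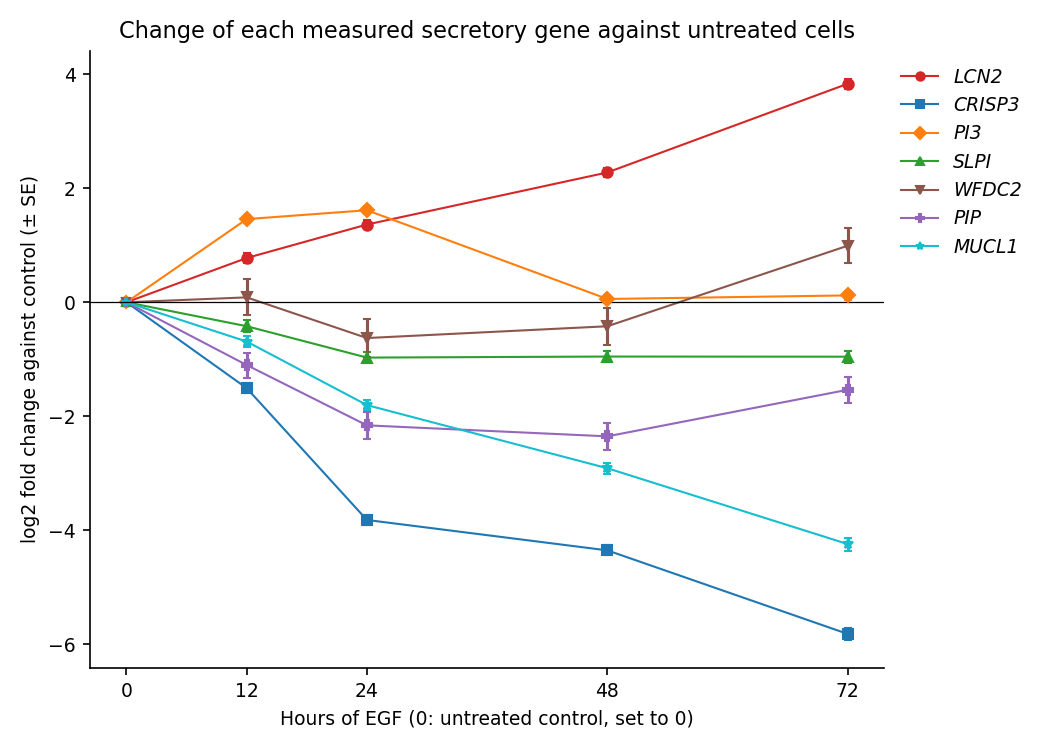
Log2 fold change against control of the 7 measured secretory genes (y axis, points with SE bars from the edgeR fit, n = 4 libraries per group) against hours of EGF (x axis, to scale), with the control set to 0. LCN2 reaches 3.83 and CRISP3 -5.82 at 72 h, and MUCL1 declines at every time to -4.24. SLPI levels off near -0.95, and PI3 is back near 0 at 48 and 72 h.

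To compare the genes with each other, CPM was divided by the length of the merged exons. Per kb of exon, SLPI had the highest level in untreated cells, 413 ± 77.1 (SD, n = 4) CPM per kb, which placed it at rank 62 of 13328 protein-coding genes. PI3 with 156 ± 11.1 and CRISP3 with 147 ± 16.1 came next and overlapped. They were followed by LCN2 with 88.2 ± 17.1, MUCL1 with 61.7 ± 2.26, PIP with 8.60 ± 1.49 and WFDC2 with 1.23 ± 0.59. SCGB2A1 and LTF came last.

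The order turned with EGF. PI3 led at 12 h with 429 ± 14.7 and at 24 h with 478 ± 43.8 CPM per kb, and at 24 h LCN2 and SLPI overlapped behind it. LCN2 led at 48 h with 427 ± 27.5 and at 72 h with 1256 ± 45.0 CPM per kb. This took LCN2 from rank 390 in control to rank 14 at 72 h. CRISP3 went from rank 208 to rank 7769 and MUCL1 from rank 579 to rank 7083. At 72 h MUCL1, PIP, CRISP3 and WFDC2 lay between 2.43 and 3.25 CPM per kb, and neighbors in that order overlapped. The order among the middle genes depends on exon length: with the basic annotation, MUCL1 stood at 140.4 CPM per kb in control and above LCN2 at 135 CPM per kb. At 72 h it then stood at 7.40 ± 1.15 CPM per kb, apart from WFDC2 at 3.01, PIP at 2.94 and CRISP3 at 2.64.

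**Figure D3:**
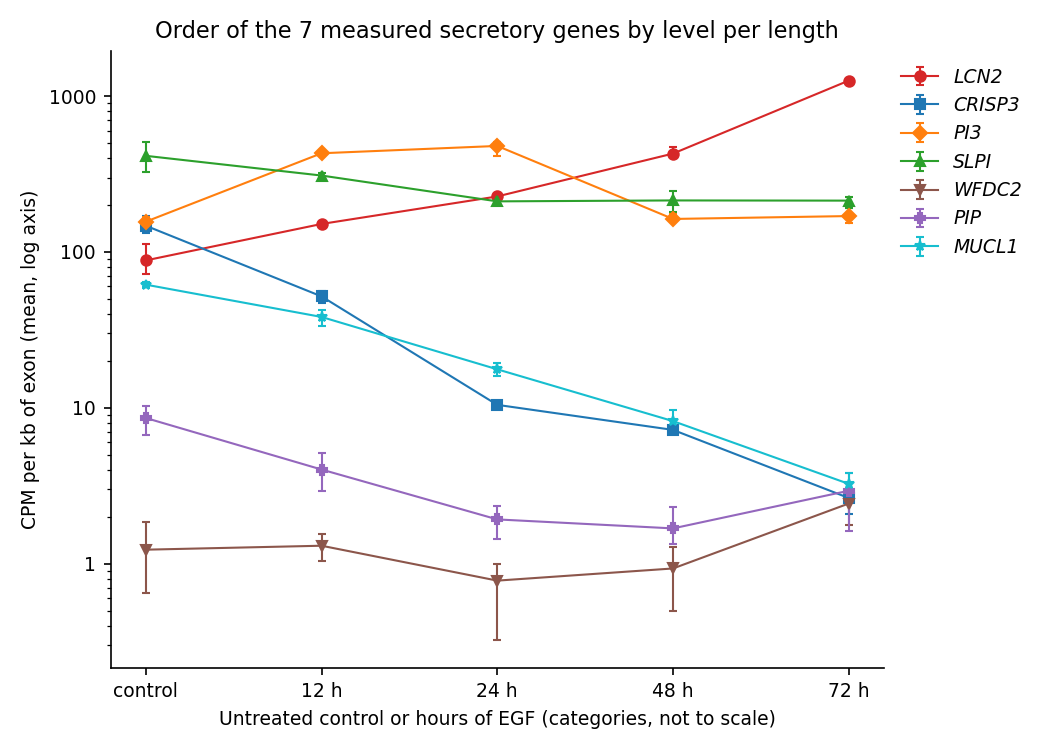
Mean CPM per kb of merged exon (log axis) of the 7 measured secretory genes in control and at each EGF time, with bars from the lowest to the highest of 4 libraries. SLPI is highest in control at 413, PI3 at 12 and 24 h, and LCN2 at 48 and 72 h, while CRISP3, MUCL1, PIP and WFDC2 lie below 4 at 72 h, where MUCL1 would be at 7.40 with the basic annotation.

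Summed after TMM scaling, the 9 genes together held 892 ± 46.9 CPM in control. Up to 48 h of EGF the sum was between 812 ± 34.0 and 933 ± 63.4 CPM, and at 72 h it was 2248 ± 88.4 CPM. LCN2 made up 15.7 ± 2.20% of this sum in control and 89.3 ± 0.37% at 72 h. CRISP3 made up 37.3 ± 5.68% in control and 0.265 ± 0.05% at 72 h.

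PI3, SLPI and WFDC2 belong to the WAP gene cluster of chromosome 20, where they lie within 307 kb. Their time courses differed: PI3 was higher at 12 and 24 h, SLPI lower at all times, and WFDC2 highest at 72 h. The stretch from PI3 to WFDC2 holds 19 annotated genes, of which 7 passed the filter. The other 4 of these were SDC4, SYS1, DBNDD2 and PIGT, which encode no WAP domain proteins. Of these 4, 3 were higher than control at 12 h, when none was lower, and at 24 h 1 was higher and 3 were lower (edgeR). DBNDD2 was the one that stayed higher, by 0.66 ± 0.09 on the log2 scale at 12 h (adjusted p = 7.29e-07, edgeR) and 0.75 ± 0.09 at 72 h (adjusted p = 1.6e-07, edgeR). A read-through transcript joins SYS1 and DBNDD2, so their counts may share reads.

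**Figure D4:**
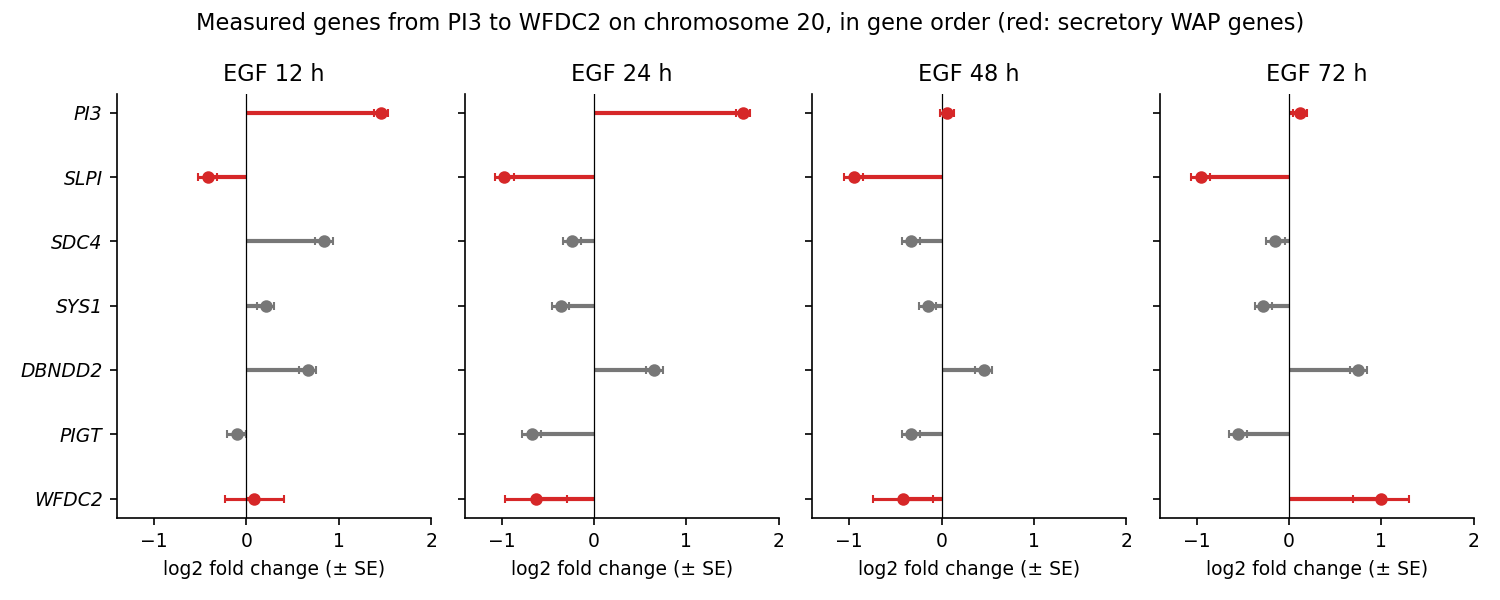
Log2 fold change against control with SE bars (x axis) of the 7 measured genes from PI3 to WFDC2 on chromosome 20, listed from top to bottom in gene order, with a panel for each EGF time. PI3 lies to the right at 12 and 24 h (1.46 and 1.61) and SLPI to the left at all times (-0.42 to -0.97), and of the 4 genes between SLPI and WFDC2, DBNDD2 lies to the right and PIGT to the left in all panels (0.46 to 0.75 and -0.11 to -0.68).

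For each measured gene, the 3 other genes with the closest time course were found among 13874 genes with at least 1 CPM on average. The measure was the root mean square difference of the log2 fold changes at the 4 EGF times, and it says nothing on shared control. SLPI had the closest match, SDC1 (syndecan 1) at 0.03, followed by FAM13B and C4orf3. LCN2 was closest to the non-coding LINC01564 at 0.25, to RNASE1 at 0.36 and to AL353751.1 at 0.36. PI3 was closest to SRSF12 at 0.24, LY6D at 0.26 and PTPRG at 0.27, which were likewise higher at 12 and 24 h and near control later. PIP was closest to GRHL3 at 0.19, an epithelial transcription factor, then to CD24 and LRRC26 at 0.43 and 0.44. WFDC2 was closest to SCNN1B, JUN and ISG15 at 0.11 to 0.24. The closest matches of SLPI, PIP and WFDC2 lay nearer than the SEs of these genes' own log2 fold changes. Those SEs were 0.10 for SLPI, 0.22 to 0.24 for PIP and 0.30 to 0.34 for WFDC2, so which gene came first is uncertain. CRISP3 and MUCL1 had no near match: the closest to CRISP3 was CP (ceruloplasmin) at 1.20, then ELAPOR1 and ATP13A5, and the closest to MUCL1 was FGG (fibrinogen gamma) at 0.72, then C14orf132 and CP.

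Lists of 122 related genes were tested beside them: relatives of each gene, other milk and antimicrobial proteins, binding partners, and regulators. Of these, 55 passed the filter. At 12 h 24 rose and 22 fell, at 24 h 26 rose and 19 fell, at 48 h 24 rose and 18 fell, and at 72 h 25 rose and 19 fell (edgeR). The called share was 83.6%, 81.8%, 76.4% and 80.0% at the 4 times, against 69.4%, 58.8%, 45.8% and 61.6% of all genes. The median log2 fold change of the 55 lay between 0.12 and 0.18, and that of all genes between -0.05 and 0.0099. As the lists were chosen with earlier results of these data known, nothing is read from these differences. The values named next have adjusted p-values from edgeR, and where they passed, all 4 EGF libraries lay on one side of all controls unless stated.

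Most relatives of the 9 genes were too low to test in these cells. In the chromosome 20 WAP cluster 14 of 15 neighbors were too low to test, with at most 6 counts in any library. WFDC3, of unknown function, was the exception and rose from 0.360 ± 0.20 CPM in control to 7.31 ± 0.51 at 72 h, a log2 fold change of 4.34 ± 0.24 (adjusted p = 8.59e-15). It held few counts in control and passed the filter only through EGF libraries, so the size of its fold is uncertain. Of 9 other secretoglobins, SCGB2A2 alone could be tested. SCGB2A2 encodes mammaglobin A, the breast tumor marker, and fell from 5.53 ± 1.72 CPM to 1.02 ± 0.63 at 24 h (-2.40 ± 0.31, adjusted p = 2.51e-07). Its mean was 2.54 CPM at 48 h, and at 72 h it stood at 1.79 ± 0.29 CPM (-1.63 ± 0.28, adjusted p = 1.92e-05).

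Of 8 other genes of the CRISP superfamily 4 were tested. GLIPR1 rose at all 4 times, most at 12 h from 0.329 ± 0.12 to 38.1 ± 2.82 CPM (6.82 ± 0.32, adjusted p = 9.96e-18). Like WFDC3, it held few counts in control and passed the filter only through EGF libraries, so its fold is uncertain in size. CRISPLD2 rose at 12 h by 1.07 ± 0.07 (adjusted p = 7.35e-12) and GLIPR2 fell by 0.99 at 72 h (adjusted p = 7.48e-06). CRISP2, the neighbor of CRISP3 on chromosome 6, was named after its values were seen. It had 14 to 28 counts in each control library and 0 to 2 in every EGF library, and was lower at all 4 times. It passed the filter only through the control libraries, so only a fall against control could be called, and no p-value is given. No fold is given against such counts.

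Of 17 other lipocalins 4 were tested, and none of them rose at all 4 times. OBP2A and OBP2B, which encode odorant-binding proteins and are so alike that their reads may be shared, both fell. OBP2B went from 10.6 ± 1.11 to 2.06 ± 0.83 CPM at 24 h (-2.33 ± 0.19, adjusted p = 1.97e-10) and OBP2A from 3.62 ± 1.31 to 0.436 ± 0.08 CPM at 72 h (-3.05 ± 0.32, adjusted p = 4.66e-09). At 48 h the means were 7.57 CPM for OBP2B and 2.25 CPM for OBP2A, whose libraries overlapped with control. APOM, a carrier of sphingosine phosphate, fell by 1.34 at 24 h (adjusted p = 4.36e-08).

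Among 17 milk and mammary secretory proteins 9 were tested, and at 72 h 4 rose and 3 fell. The caseins were not among those tested. XDH, an enzyme that coats milk fat droplets, rose at every time and reached 46.5 ± 1.19 CPM at 72 h from a mean of 4.796 CPM in control (3.28 ± 0.11, adjusted p = 1.04e-17). LPO, the antimicrobial lactoperoxidase, fell at 12 h and was at 1.73 ± 0.17 CPM at 72 h against 0.442 ± 0.16 in control (1.97 ± 0.25, adjusted p = 1.69e-07). It passed the filter only through EGF libraries. CLU, the chaperone clusterin, fell from 215 ± 27.8 to 35.9 ± 2.26 CPM at 72 h (-2.58 ± 0.11, adjusted p = 2.28e-15). AZGP1, a secreted protein that binds PIP, fell from 713 ± 88.6 CPM to 380.2 ± 9.13 at 12 h. Its mean was 287 CPM at 24 h and 433 CPM at 48 h. At 72 h it stood at 302 ± 15.4 CPM (-1.24 ± 0.08, adjusted p = 1.17e-12).

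Of 18 other epithelial antimicrobial proteins 6 were tested. RNASE7, a skin ribonuclease that kills bacteria, had 0 to 2 counts in each control library and 533 to 1131 at 72 h, or 36.6 ± 5.14 CPM (adjusted p = 1.45e-15). It passed the filter only through EGF libraries. Its level at 24 h was 0.832 ± 0.50 CPM and at 48 h 3.38 ± 1.00 CPM, so that, like LCN2, it was highest at 72 h. ANG, angiogenin, stood at 10.7 ± 0.34 CPM at 72 h against 4.19 ± 0.75 in control (1.35 ± 0.12, adjusted p = 1.19e-09). At 12 h ANG was lower than control, with overlapping libraries. RNASE4, which shares its first exons with ANG so that reads may be split between them, fell by 1.39 at 12 h (adjusted p = 0.000257) and passed at no other time.

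Of 19 binding partners and target proteases 12 were tested. At each time 7 rose, while 2, 3, 2 and 2 fell at 12, 24, 48 and 72 h (edgeR). Over all genes, 32.9%, 29.2%, 24.0% and 30.6% rose and 36.5%, 29.6%, 21.8% and 31.0% fell. TGM2, a transglutaminase of the family that anchors elafin, rose from 0.190 ± 0.07 to 19.9 ± 1.59 CPM at 12 h (6.64 ± 0.33, adjusted p = 5.57e-18). Its control level lay near the floor of 3 counts, which is 0.135 to 0.163 CPM in these libraries. TGM2 passed the filter only through EGF libraries, so the size of its fold is uncertain. ANXA2, a surface protein that binds SLPI, rose from 1035 ± 102 to 5089 ± 53.5 CPM at 12 h (2.30 ± 0.06, adjusted p = 4.6e-19). TFRC, the transferrin receptor, rose to 325 ± 22.1 CPM at 72 h from 93.3 ± 9.42 (1.80 ± 0.10, adjusted p = 2.64e-13). SLC22A17, a receptor proposed for lipocalin 2, stayed below 1.2 CPM in every library and passed at no time, and was at 0.55 ± 0.40 on the log2 scale at 72 h (adjusted p = 0.233).

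Among regulators known to act on these genes in breast and other epithelia, 18 of 19 were tested. At 12, 24, 48 and 72 h 10, 9, 8 and 7 of them rose and 6, 6, 6 and 8 fell (edgeR). The called share was 88.9%, 83.3%, 77.8% and 83.3%, beside 69.4%, 58.8%, 45.8% and 61.6% of all genes. PRLR, the prolactin receptor, fell from 188 ± 31.0 CPM to 53.0 ± 1.96 at 12 h (-1.82 ± 0.09, adjusted p = 1.34e-14) and stood at 68.2 ± 3.49 at 72 h. ELF5, a factor of milk-producing cells, fell from 1.83 ± 0.19 to 0.373 ± 0.07 CPM at 12 h (-2.27 ± 0.28, adjusted p = 5.07e-08). CEBPA fell at all 4 times, by 2.30 at 72 h (adjusted p = 9.68e-11), and CEBPD fell by 0.91 (adjusted p = 6.45e-07).

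CEBPB, NFKBIZ, ELF3 and EHF encode factors known to act on inflammatory and epithelial genes such as LCN2. CEBPB was higher by 0.30 ± 0.07 at 12 h (adjusted p = 0.000765), and NFKBIZ by 0.40 ± 0.09 (adjusted p = 0.000549). CEBPB was also higher at 24 h, by 0.29 ± 0.07 (adjusted p = 0.00137), and at 48 h, by 0.32 ± 0.07 with overlapping libraries (adjusted p = 0.000668). NFKBIZ was at 0.30 ± 0.09 at 24 h with overlapping libraries (adjusted p = 0.00756) and at -0.09 ± 0.09 at 48 h (adjusted p = 0.438). At 72 h, when LCN2 was highest, CEBPB was at 0.16 ± 0.07 (adjusted p = 0.0578) and NFKBIZ at 0.05 ± 0.09 (adjusted p = 0.632). ELF3 rose by 0.43 ± 0.09 at 72 h (adjusted p = 0.000163) and EHF fell by 0.54 at 48 h (adjusted p = 2.46e-07), a call that was lost with factors per gene from the deposited normalized values, at -0.24. With scaling by library size alone, CEBPB, NFKBIZ and ELF3 did not pass at 12 h, nor did CEBPB and NFKBIZ at 24 h. The part of these factors in the level of LCN2 was not tested.

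**Figure D5:**
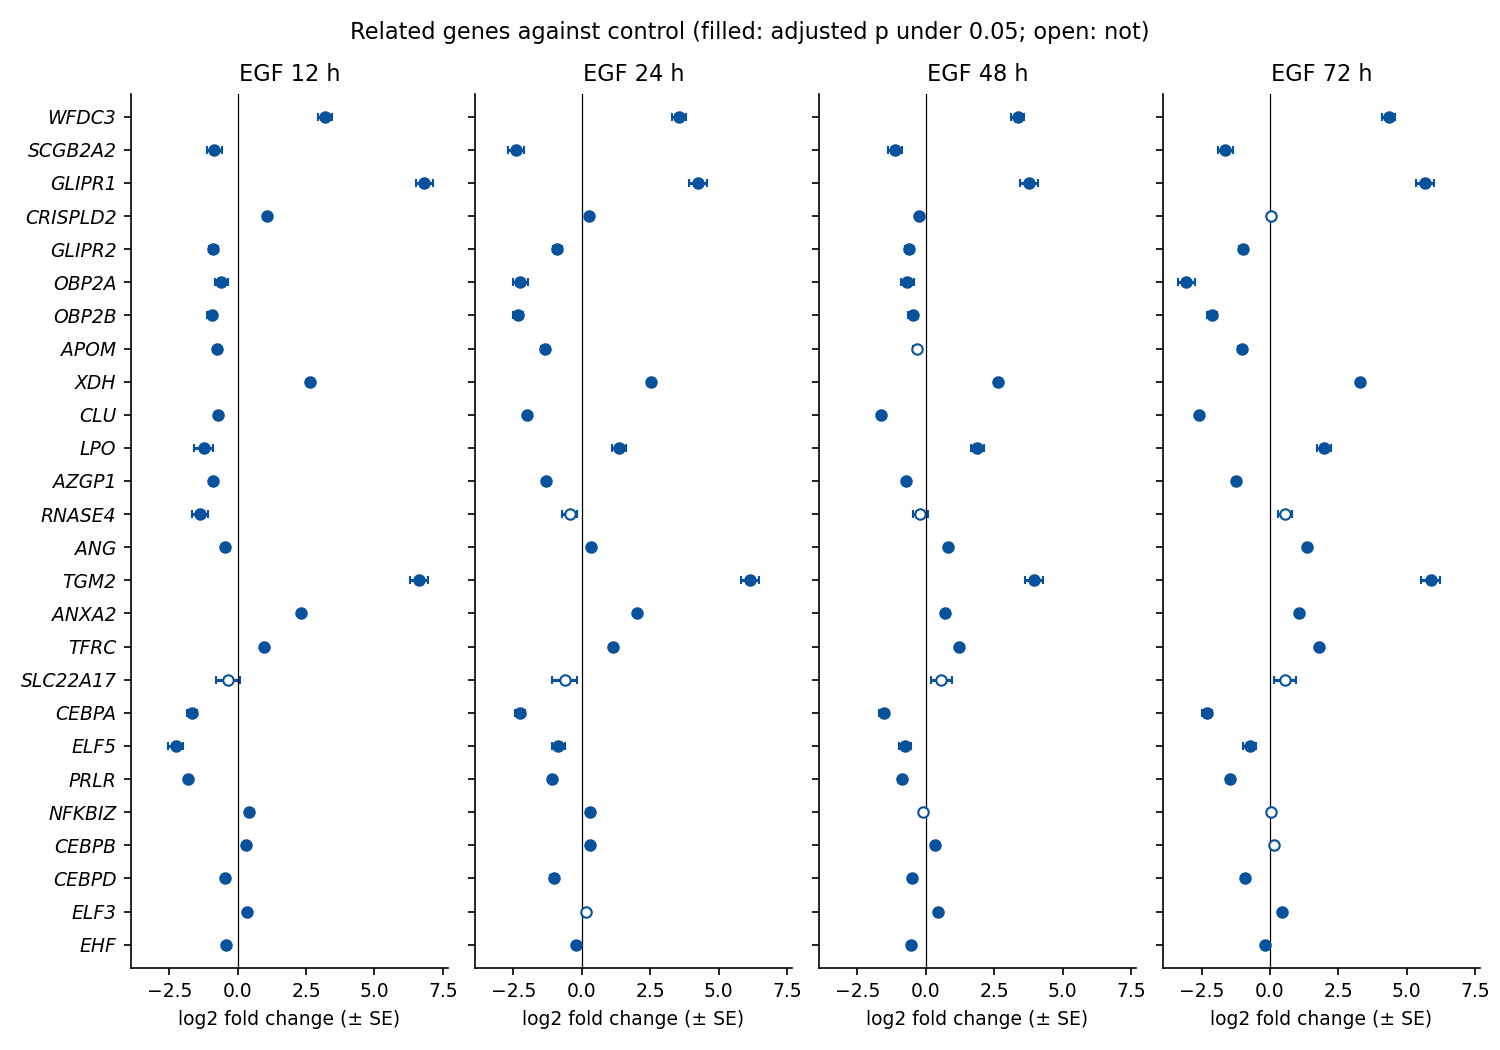
Log2 fold change against control with SE bars (x axis) of 26 related genes (rows) with a panel for each EGF time, where filled points have an adjusted p under 0.05 in edgeR and open points do not. RNASE7, with 0 to 2 counts in each control library, is not drawn. GLIPR1 and TGM2, which held few counts in control, lie farthest to the right at 12 h (6.82 and 6.64). OBP2A lies farthest to the left at 72 h (-3.05).

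The labelled cell type was checked by its markers. EPCAM was at 138 to 226 CPM in all libraries. The summed level of 6 epithelial markers was 1560 to 1970 CPM in control and 7330 to 7850 CPM at 12 h. It was 3700 to 4530 CPM at 24 h, 1750 to 1920 at 48 h and 2440 to 2880 at 72 h. Most of the sum at 12 h was KRT18, with a mean of 5136 CPM against 788 in control. CDH1 was at 127.5 CPM in control, 181 at 12 h and 90.6 at 72 h. Of the 3 receptors by whose protein triple negative tumors are defined, PGR had no count in any library, while ERBB2 was at 21.6 ± 2.96 (SD, n = 4) and ESR1 at 5.03 ± 1.06 CPM in control. ERBB2 and ESR1 were above 1 CPM in every group, and protein was not measured here. As LTF, LCN2 and CRISP3 are also proteins of neutrophil granules, 10 neutrophil markers were read. ELANE was at 0 in every library, MPO reached at most 0.0559 CPM, and the sum of the 10 was 1.86 to 5.38 CPM over all libraries. CSF3R made up most of it in control, with a mean of 2.85 CPM, and was at 0.472 CPM at 24 h and 1.56 CPM at 72 h. CAMP was at 0.101 CPM in control, 0.815 at 24 h and 0.691 at 72 h, and ITGAM at 0.184 CPM in control and 1.15 at 48 h. The part of these genes in the results was not tested.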

How the data were processed

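Gene expression was measured by RNA-seq in 20 libraries of MDA-MB-468 cells in 5 groups of 4 biological replicates. The authors deposited 10 tables that hold the same 60271 genes and the same estimated counts, rounded to whole numbers, together with a normalized value per gene and library that is treated here as a score. The deposited fold changes and p-values were not used. The submitters' processing notes name hg38 and DESeq2, and the aligner is not given in the sources used here.

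Counts were analyzed in edgeR 4.0.16 under R 4.3.3. The filterByExpr function kept 16522 genes, and TMM factors scaled the libraries to CPM. One mean per group was fitted to all 20 libraries, with a prior count of 0.125 for log2 fold changes. The robust quasi-likelihood test was used, with p-values adjusted by Benjamini-Hochberg over these genes and a threshold of 0.05. The p-values measure the spread between these cultures of 1 cell line. Samples with the same replicate number showed no clear shared deviation, with correlations from -0.32 to 0.49 over 40 pairs. Over 120 other pairs the correlations were -0.458 to 0.386. The numbers were not used as a pairing. Replicates of a group differed by 3.54 to 58.1 times the sampling variance over 30 pairs, so none was counted as a duplicate.

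The 9 genes and the 8 lists of related genes were chosen with earlier results of these data known. The genes named are these 9 and up to 3 per list. Those 3 had the largest change among genes past the threshold and at 1 CPM or more on average. From the same lists, 11 related genes were named whatever their change. The 3 genes of most similar time course were also named for each measured gene. A gene that this rule names is not reported here. A gene was called too low to measure when it did not pass the filter. Exon lengths and positions are from GENCODE 29, and promoter sequences are from RefSeq on GRCh38.p14. The procedure was tested on simulated data. Alternatives were other scalings, per-gene factors from the deposited normalized scores, the Wald test of DESeq2 1.42.0, other filters, only the 8 libraries compared, a replicate block, leaving out each library in turn and a larger prior count (2).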

Additional observations from a re-analysis of the deposited data

Results flagged for a closer look

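In groups of 4 libraries, 6 values of related genes stood apart from the other 3 by Dixon's test at 95%, out of 170 groups tested, and none belonged to the 7 measured secretory genes. Chance flags about 1 in 20 groups. ANG was at 3.07 CPM in control replicate 3, against 4.46 to 4.66 CPM in the other controls. EHF was at 276 CPM in control replicate 3, against 239 to 245 CPM. APOM was at 3.22 CPM in 24 h replicate 2, against 3.61 to 3.65 CPM. PRLR was at 50.1 CPM in 12 h replicate 1, against 53.8 to 54.3 CPM. In 24 h replicate 1, TFRC was at 164 CPM against 211 to 219 CPM, and TGM2 was at 11.02 CPM against 15.3 to 15.5 CPM. The causes were not tested.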

How the results depend on the processing

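Over the alternatives, 111 of 112 counts of the secretory genes past the threshold and 61 of 64 counts of related genes stayed within 1.5 times the value given. The exceptions came with factors per gene from the deposited normalized values, which require at least 20 counts in every library and so leave 5 of the 7 secretory genes and 38 of the 55 related ones. From 48 to 72 h, 3 secretory genes then passed, and 27, 23 and 26 related genes passed at 24, 48 and 72 h against control. The log2 fold changes of the 7 secretory genes stayed within 1 SD of a library in 492 of 518 cases and kept their direction wherever they had passed. Most of the 26 larger shifts came with scaling by library size alone, such as CRISP3 at -1.79 and PI3 at 1.17 at 12 h. Pairing by replicate number was not clear in the data. Libraries of the same number had a median correlation of 0.0226 and other pairs of -0.00344, but 9 of 20 libraries correlated best with their own number. A weak pairing is thus not excluded. With a replicate block, 6, 6, 5 and 6 secretory genes and 46, 45, 43 and 44 related genes passed at 12, 24, 48 and 72 h against control, and 6 secretory genes passed from 12 to 24 h. Among related genes, EHF turned to 0.03 at 24 h and 0.14 at 72 h with factors per gene. Basic gene models, an alternative added after the data were seen, moved MUCL1 from 61.7 to 140.4 CPM per kb in control. Genes near 1 CPM, such as WFDC2 and PIP, rest on few counts, and LTF and SCGB2A1 could not be compared at this depth.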
